A study of Drosophila melanogaster with 30 samples.

Results

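The genes of the mitochondrial genome were 37 of the 17559 genes in the deposited count table, chosen as every gene whose name begins with "mt:". They comprised 13 protein genes, 2 rRNA genes and 22 tRNA genes, and all 37 were found by gene ID among the 38 features of the mitochondrial chromosome in the Ensembl annotation of BDGP6, the assembly also called dm6. Poly(A) RNA was sequenced from single heads and single bodies of male Drosophila melanogaster of the genotype Cantonized w1118, kept at 25 °C and 60% humidity with 12 h of light and 12 h of darkness a day. The young flies were 5 days old and slept normally. The aged flies were 25 days old and were divided by their sleep record into those without sleep fragmentation (aged NSF) and those with it (aged SF). Each of the 6 groups, 3 of heads and 3 of bodies, held 5 libraries, and 1 batch date was given for all of them.

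The mitochondrial genome of animals encodes core subunits of respiratory complexes I, III and IV and of the ATP synthase, complex V, together with the rRNAs and tRNAs of the mitochondrial ribosome's own translation system. Long precursors are transcribed from both strands and cut at the tRNA genes that lie between the other genes, and the mRNAs and rRNAs are then given short A tails. Complex II and the remaining subunits of the other complexes are encoded in the nucleus. A level here is therefore a level of RNA that was caught on oligo d(T) beads, and in whole heads and bodies fewer cells of a type and less RNA per cell cannot be told apart.

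Counted reads ranged from 1685034 to 3597530 per head and from 2458538 to 8060238 per body, and levels are given in CPM, counts scaled to library depth. The limit that a count of 0 allows, set at 3 counts, was 0.834 to 1.78 CPM for heads and 0.372 to 1.22 CPM for bodies. Photoreceptor markers, genes of the eye, summed to 27998 to 53128 CPM in heads, and testis markers to 0.750 to 6.87 CPM, so the heads carried eye RNA and almost no testis RNA. Some libraries stood apart. Aged NSF body 1 held 370 CPM of 9 summed testis markers against 2594 to 3605 CPM in the other aged NSF bodies. Aged NSF body 2 held 783 CPM of 7 summed photoreceptor markers, against 41.4 to 97.9 CPM in the other bodies. Young body 1 had 2721 CPM of the testis markers against 5065 to 6535 CPM in the other young bodies, and it was also the highest young body for several mitochondrial genes. Some calls moved when these libraries were left out, and several such cases are given below.

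The large rRNA, mt:lrRNA (FBgn0013686, mitochondrial chromosome, 12735 to 14058, minus strand), is the RNA core of the large mitochondrial ribosomal subunit, and it took up more of the libraries than all other mitochondrial genes together. In young heads it made up 7.09%, 7.75%, 8.98%, 11.5% and 9.71% of all counted reads, in replicate order. In aged NSF heads the shares were 3.86%, 4.52%, 3.74%, 4.23% and 5.16%, and in aged SF heads 3.96%, 2.94%, 1.80%, 2.10% and 3.78%. Every young head lay above every aged head, while the 2 aged groups overlapped. Means for heads were 9.002% ± 1.72 (young), 4.30% ± 0.570 (aged NSF) and 2.92% ± 0.968 (aged SF; SD, n = 5 each). Exact two-sided permutation tests over all 252 splits of 5 against 5 libraries gave p = 0.00794 for aged NSF against young and for aged SF against young, the smallest value that this design can give, and 0.0278 after Benjamini-Hochberg adjustment over the 7 comparisons of this share. Aged SF and aged NSF heads differed by 1.39 percentage points, with an exact permutation p of 0.0397 that was 0.0694 after adjustment.

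Aged bodies had larger mean shares than aged heads, and young bodies did not exceed young heads on average. The values were 11.2%, 6.90%, 5.64%, 9.02% and 7.92% in young, 7.18%, 6.77%, 5.91%, 7.30% and 8.05% in aged NSF and 5.66%, 5.32%, 6.92%, 5.09% and 6.13% in aged SF bodies. All 3 groups overlapped, and the young bodies spread most widely. Means were 8.13% ± 2.11, 7.04% ± 0.781 and 5.82% ± 0.727 (SD, n = 5). The exact permutation p was 0.341 for aged NSF against young, 0.0556 for aged SF against young and 0.0397 for aged SF against aged NSF, or 0.398, 0.0778 and 0.0694 after adjustment. Without aged NSF bodies 1 and 2 the last exact permutation p was 0.107. Young bodies and young heads did not differ beyond their spread either (exact permutation p = 0.484, adjusted p = 0.484).

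**Figure D1:**
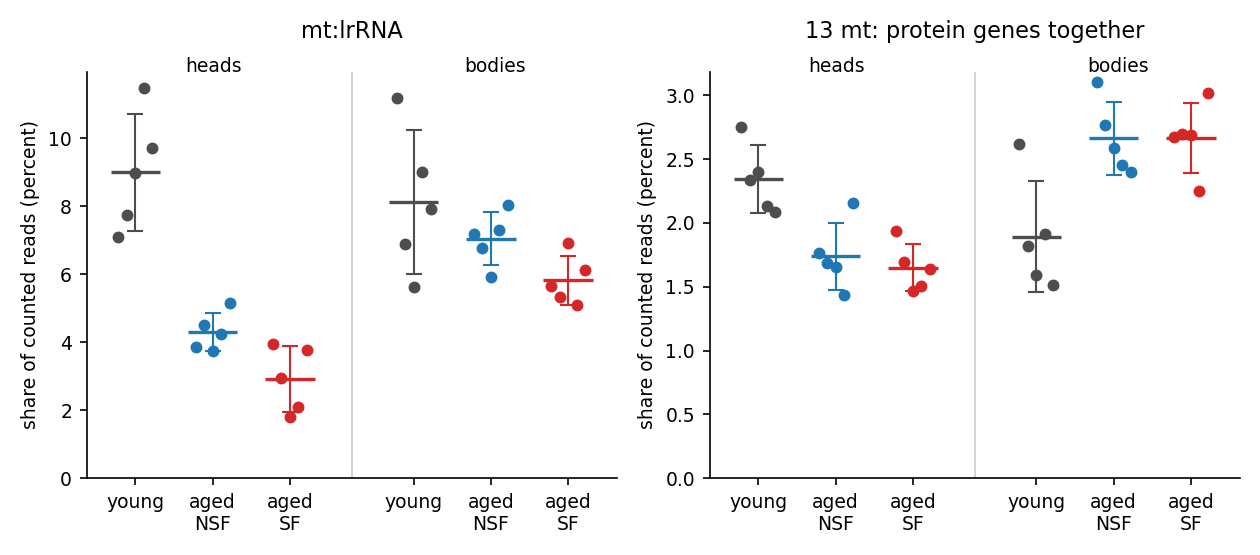
Share of counted reads, in percent, taken by mt:lrRNA (left) and by the 13 mitochondrial protein genes together (right); each point is 1 library, lines are group means and bars are SD over 5 libraries. The young heads sit between 7.09% and 11.5% for mt:lrRNA, above all aged heads, whereas for the protein genes the aged bodies lie highest on average.

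The protein genes took a smaller share and did not follow the large rRNA in bodies. Among heads they made up 2.34% ± 0.264 of the reads of young flies, 1.74% ± 0.263 for aged NSF and 1.65% ± 0.186 for aged SF flies (SD, n = 5). In bodies they made up 1.89% ± 0.436 in young, 2.66% ± 0.283 in aged NSF and 2.67% ± 0.273 in aged SF libraries. Set against each other, mt:lrRNA gave 2.58 to 5.38 reads per protein-gene read in heads of young flies, 2.19 to 2.95 with age and normal sleep, and 1.23 to 2.31 with age and fragmented sleep. In bodies the ratio was 3.54 to 5.22 in young, 2.29 to 3.35 in aged NSF and 1.97 to 2.57 in aged SF libraries. The ratio was thus lower in every aged body than in every young body, and lower in every aged SF head than in every young head. Both quantities are sums over members and are given as a description with no test.

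**Figure D2:**
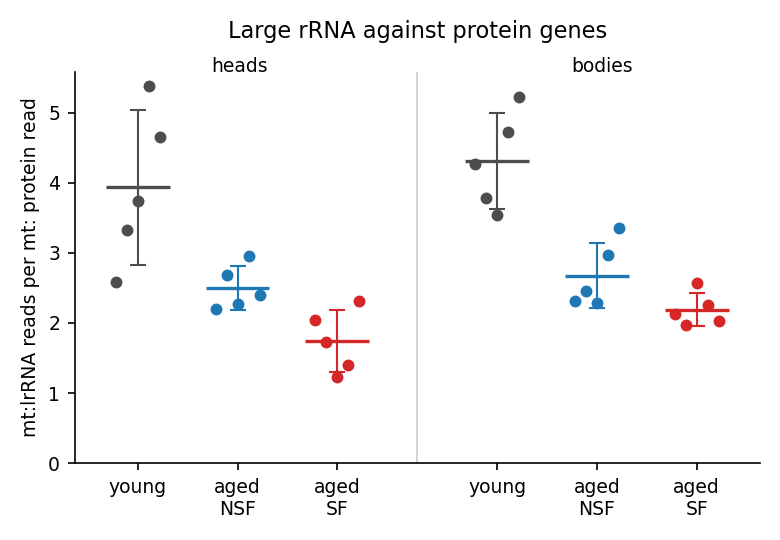
Reads of mt:lrRNA per read of the 13 mitochondrial protein genes, 1 point per library, with group means and SD over 5 libraries. Aged bodies lie between 1.97 and 3.35 and young bodies between 3.54 and 5.22, and in heads the aged SF libraries lie lowest, between 1.23 and 2.31.

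Single genes were tested with edgeR's quasi-likelihood test across all genes of a tissue, and a gene was called at a Benjamini-Hochberg adjusted p under 0.05. Of the 37 members, 16 passed the filter on low counts in heads and 17 in bodies, namely 12 protein genes, both rRNA genes and 2 or 3 tRNA genes. Except for mt:tRNA:Y in bodies, the tRNA genes that passed did so mainly through the groups in which they were high. The tRNA genes are therefore described apart below. The remaining members were mt:ATPase8, a small ATP synthase subunit with 22 reads in all 30 libraries, and the other tRNA genes.

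In heads of aged NSF against young flies, 6 of the 12 tested protein genes and both rRNA genes fell and none of these 14 rose. Of all 9088 genes tested 22.8% were called, 11.5% as lower and 11.4% as higher. The median log2 fold change of the 12 protein genes was -0.42, and that of all genes tested was 0.02. Complex IV, the cytochrome c oxidase that reduces oxygen, fell in all 3 of its mitochondrial subunits. For mt:CoIII (FBgn0013676, 4736 to 5524, plus strand) the young heads read 6016, 4637, 4853, 4468 and 4241 CPM and the aged NSF heads 2607, 2390, 2302, 2374 and 3402 CPM. Every young head was above every aged NSF head, and the log2 fold change was -0.88 ± 0.13 (SE, adjusted p = 2.22e-05). For mt:CoII (FBgn0013675) the levels were 2375 to 3302 CPM in young and 1415 to 2096 CPM in aged NSF heads, again without overlap, with a log2 fold change of -0.78 ± 0.13 (adjusted p = 8.85e-05). The catalytic subunit gene mt:CoI (FBgn0013674) fell by 0.55 on the log2 scale (SE 0.15, adjusted p = 0.00875).

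Complexes I, III and V changed less evenly in the same comparison. mt:Cyt-b, the mitochondrial subunit of complex III, fell by 0.43 on the log2 scale (SE 0.13, adjusted p = 0.0175). Of the 7 complex I genes, which encode membrane subunits of the NADH dehydrogenase, mt:ND4 (-0.95 ± 0.26, adjusted p = 0.0146) and mt:ND5 (-0.83 ± 0.25, adjusted p = 0.0239) fell. The other complex I genes had log2 fold changes of -0.41 (mt:ND3) to 0.18 (mt:ND6) with adjusted p-values from 0.135 to 0.891, and mt:ATPase6, the proton channel subunit of the ATP synthase, had -0.12 ± 0.17 (adjusted p = 0.684). For mt:srRNA (FBgn0013688, 14131 to 14916, minus strand), the RNA of the small ribosomal subunit, young heads read 92.4, 141, 249, 156 and 102 CPM and aged NSF heads 73.8, 118, 41.8, 63.7 and 60.7 CPM. These groups overlapped through aged NSF head 2. The log2 fold change was -1.23 ± 0.22 for mt:lrRNA (adjusted p = 0.000668) and -1.04 ± 0.35 for mt:srRNA (adjusted p = 0.0464). Without aged NSF head 4 only 6 of the 10 called members, tRNA genes included, stayed under the threshold, and mt:Cyt-b, mt:ND5, mt:srRNA and mt:tRNA:Y did not. The call of mt:srRNA was lost in 9 of the 15 fits that left out 1 head.

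Aged SF heads were compared with the same young heads, so the next values share their controls with those above. Of the 12 protein genes 9 fell and none rose, and both rRNA genes fell, beside 25.2% of all genes that were called, 12.2% as lower and 13% as higher. The protein genes' median log2 fold change was -0.83, against 0.00 for all genes. mt:ND5 (FBgn0013684, 6409 to 8125, minus strand) read 564, 775, 1082, 1565 and 874 CPM in young heads and 428, 394, 290, 307 and 428 CPM in aged SF heads. No aged SF head reached the lowest young head, and the log2 fold change was -1.34 ± 0.25 (adjusted p = 0.000943). Falls were also found for mt:ND4 (-1.39 ± 0.26), mt:ND1 (-0.77 ± 0.23), mt:CoII (-0.89 ± 0.13), mt:CoIII (-0.76 ± 0.13), mt:CoI (-0.52 ± 0.15), mt:Cyt-b (-0.47 ± 0.13) and mt:ND6 (-1.47 ± 0.46). The call was lost for mt:ND1 without young head 4 (adjusted p = 0.0795), with the replicate block and without a filter, for mt:CoI without young head 1 (0.0504), and for mt:ND6 without young head 5 or aged SF head 3 or 4. mt:lrRNA had -1.80 ± 0.23 (adjusted p = 2.04e-05) and mt:srRNA -1.71 ± 0.36 (adjusted p = 0.00312). mt:ND2, mt:ND3 and mt:ATPase6 did not pass, with adjusted p-values of 0.209, 0.877 and 0.0803, the last being 0.0347 with limma voom.

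The direct comparison of fragmented with normal sleep at 25 days called 1 mitochondrial gene in heads, mt:ND4L, which fell. Of all genes tested 0.253% were called, 0.033% as lower and 0.22% as higher. mt:ND4L (FBgn0013683, 9545 to 9835, minus strand) encodes the smallest complex I subunit of the mitochondrial genome. It overlaps mt:ND4 by 1 base, and how reads across both genes were counted is not given in the sources used here. Its levels were 13.7, 11.2, 14.66, 10.1 and 20.4 CPM in aged NSF heads and 3.25, 5.19, 1.4996, 2.68 and 4.69 CPM in aged SF heads. The groups did not overlap, and young heads spanned 4.20 to 29.3 CPM. The aged SF values rest on 9, 14, 4, 8 and 12 reads. The log2 fold change of aged SF over aged NSF was -1.94 ± 0.42 with an adjusted p of 0.0392, which rose above the threshold in 10 of the 15 fits without 1 head, up to 0.168 without aged SF head 3, and no mitochondrial gene was called by limma voom. Against young heads mt:ND4L fell by 2.14 on the log2 scale (SE 0.42, adjusted p = 0.00039). In the authors' deposited table of this comparison mt:ND4L had a log2 value of -1.19 with a q of 0.000252. Beside this, 4 hemocyte markers, genes of blood cells, summed to 73.1 to 125 CPM in aged NSF and 53.9 to 70.7 CPM in aged SF heads. Their part in the fall of mt:ND4L was not tested. mt:ND6 (FBgn0013685), whose levels of 9.96 to 38.7 CPM in aged NSF and 2.25 to 9.38 CPM in aged SF heads did not overlap, had a q of 0.025 and a log2 value of -0.92 in the authors' deposited table. With edgeR its log2 fold change was -1.66 ± 0.46 with an adjusted p of 0.177, and with DESeq2 it was called (adjusted p = 0.0282). mt:ND1, at 464 to 843 CPM in aged NSF and 231 to 463 CPM in aged SF heads, had groups that did not overlap and an adjusted p of 0.293. For this and the other genes, non-overlap is a description, since the share of all genes without overlap is not given. The 10 protein genes other than mt:ND4L and mt:ND6 had log2 fold changes of -0.87 (mt:ND2) to 0.36 (mt:ND3), and mt:lrRNA had -0.56 ± 0.22 (adjusted p = 0.425).

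**Figure D3:**
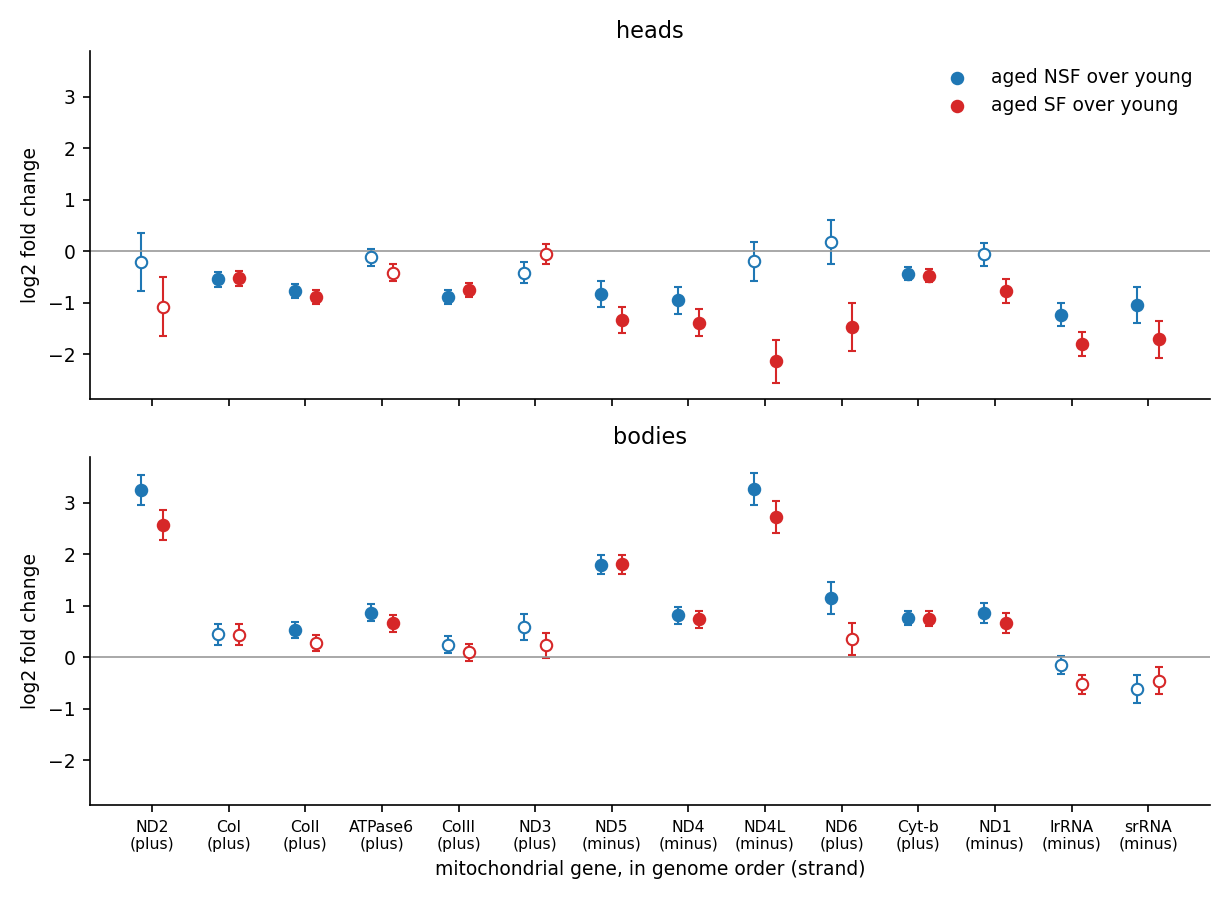
Log2 fold change (edgeR) of aged NSF over young (blue) and aged SF over young (red) for the 12 tested protein genes and the 2 rRNA genes, in their order along the mitochondrial genome with the coding strand in brackets; bars are SE, filled points had an adjusted p under 0.05 and open points did not. Filled points lie below 0 in heads and above 0 in bodies, where mt:ND2 and mt:ND4L reach 3.24 and 3.27. Both rRNA genes lie below 0 in bodies as open points.

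Bodies went the other way. In aged NSF against young bodies 9 of the 12 tested protein genes rose and none fell, while neither rRNA gene passed, beside 41.1% of the 12009 genes tested that were called, 21.7% as higher and 19.4% as lower. The median log2 fold change of the protein genes was 0.84, against 0.03 for all genes tested. The largest rises were in complex I. mt:ND2 (FBgn0013680, 240 to 1263, plus strand) read 11.7, 5.37, 5.77, 4.58 and 6.4015 CPM in young bodies and 58.8, 76.7, 82.0, 60.2 and 47.0 CPM in aged NSF bodies. The lowest aged NSF body stood above the highest young body, and the log2 fold change was 3.24 ± 0.29 (adjusted p = 4.7e-06). mt:ND4L read 1.67, 1.73, 2.39, 4.58 and 2.93 CPM in young bodies, from 9 to 12 reads each, and 27.7, 25.6, 25.0, 27.9 and 16.3 CPM in aged NSF bodies. Its log2 fold change was 3.27 ± 0.31 (adjusted p = 6.23e-06), although only 2 of the 5 young bodies were above the filter's minimum. mt:ND5 read 379, 247, 229, 308 and 225 CPM in young and 1027, 1019, 913, 813 and 1016 CPM in aged NSF bodies, with a log2 fold change of 1.80 ± 0.18 (adjusted p = 1.18e-05). In each of these 3 genes every aged NSF body was above every young body.

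The other genes that rose in aged NSF bodies had smaller changes. They were mt:ND6 (1.15 ± 0.31), mt:ATPase6 (0.87 ± 0.17), mt:ND1 (0.86 ± 0.19), mt:ND4 (0.82 ± 0.16), mt:Cyt-b (0.76 ± 0.14) and mt:CoII (0.54 ± 0.16). mt:CoI, mt:CoIII and mt:ND3 did not pass, with log2 fold changes of 0.45 ± 0.20, 0.24 ± 0.16 and 0.59 ± 0.25 and adjusted p-values of 0.0845, 0.232 and 0.0685. For mt:CoI the young bodies read 12312, 6361, 5405, 6328 and 4909.65 CPM and the aged NSF bodies 11404.5, 10146, 8502, 8939 and 8825 CPM. Young body 1 was the highest of these 10 bodies, and without it all 3 genes were called, with adjusted p-values of 0.00102, 0.0276 and 0.00449. Without aged NSF bodies 1 and 2 together the count of called members was again 11, tRNA genes included. mt:lrRNA (-0.15 ± 0.18, adjusted p = 0.521) and mt:srRNA (-0.61 ± 0.26, adjusted p = 0.0702) had values below 0. For mt:srRNA the adjusted p was 0.0434 with DESeq2 and 0.0240 with limma voom.

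Aged SF bodies, set against the same young bodies, gave a like list with 7 protein genes that rose and none that fell, beside 14.4% of all genes that were called, 11.1% as higher and 3.26% as lower. Over all genes that split was 1338 higher and 391 lower, 977 and 489 with RLE scaling, 2249 and 1990 with limma voom, 1637 and 1765 without aged NSF bodies 1 and 2, and 1637 and 1732 with only the groups compared. mt:ND2 read 37.6, 49.6, 41.2, 22.3 and 54.3 CPM in aged SF bodies and had a log2 fold change of 2.57 ± 0.29 (adjusted p = 4.04e-05). mt:ND4L had 2.72 ± 0.31 (adjusted p = 4.55e-05) and mt:ND5 1.81 ± 0.18 (adjusted p = 1.17e-05). mt:ND4 (0.74 ± 0.16), mt:ND1 (0.66 ± 0.19), mt:Cyt-b (0.75 ± 0.14) and mt:ATPase6 (0.66 ± 0.17) rose as well. mt:ND6, mt:CoI, mt:CoII, mt:CoIII and mt:ND3 did not pass, at 0.36, 0.44, 0.29, 0.10 and 0.23 on the log2 scale. With limma voom mt:CoI (0.66, adjusted p = 0.00264) and mt:CoII (0.39, adjusted p = 0.0318) were called, and mt:CoI was called without young body 1 (adjusted p = 0.00396). The call of mt:ND1 was lost in 8 of the 15 fits without 1 body. mt:lrRNA had -0.52 ± 0.18 with an adjusted p of 0.0624, which was 0.0368 with RLE scaling and 0.0205 with DESeq2. It was also called without aged NSF bodies 1 and 2 (adjusted p = 0.0278), with only the groups compared (0.0397) and without a filter (0.0483).

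Between aged SF and aged NSF bodies no mitochondrial gene was called by edgeR, DESeq2 or limma voom, and 2 of the 17 tested members had an unadjusted p under 0.05. Here 0% of the 12009 genes tested were called by edgeR, 2082 had an unadjusted p under 0.05, and DESeq2 and limma voom called 640 and 390 genes. The protein genes' log2 fold changes ran from -0.79 (mt:ND6) to 0.01 (mt:ND5), with a median of -0.20 against 0.02 for all genes tested. mt:ND2, at 41.0 ± 12.4 CPM in aged SF and 64.9 ± 14.2 CPM in aged NSF bodies (SD, n = 5), had -0.68 ± 0.26 (adjusted p = 0.204).

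**Figure D4:**
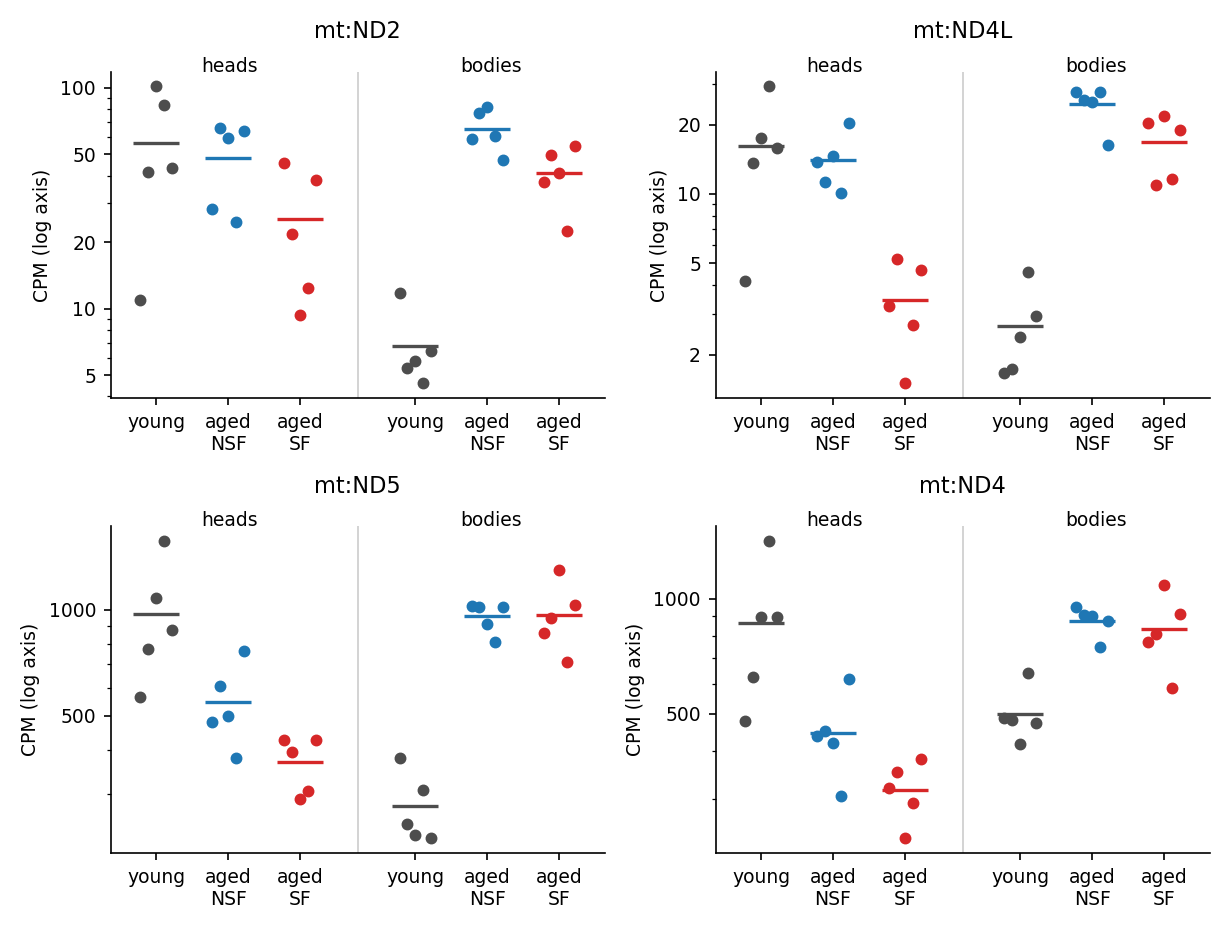
Levels of 4 complex I genes in CPM on a log axis, 1 point per library, with lines at the group means. In bodies the young libraries have the lowest means for all 4 genes, and mt:ND2 and mt:ND4L move from means of 6.77 and 2.66 CPM in young to 64.9 and 24.5 CPM in aged NSF bodies, while in heads the aged SF libraries have the lowest means.

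Young bodies and young heads were compared directly in a fit of all 30 libraries. Bodies were lower for 6 of the 12 protein genes and higher for none, beside 70.8% of the 12318 genes tested that were called, 27.7% as lower and 43.1% as higher. The median of all genes was 0.27 on the log2 scale and 0.40 with RLE scaling, and the median of the 12 protein genes was -0.41. mt:ND2 had a log2 difference of -3.01 ± 0.47 (adjusted p = 1.73e-06), mt:ND4L -2.64 ± 0.39 (adjusted p = 3.98e-07) and mt:ND5 -1.81 ± 0.22 (adjusted p = 1.08e-08). mt:ND4 (-0.78 ± 0.21) was lower too. mt:CoII (-0.33 ± 0.14) and mt:ND1 (-0.50 ± 0.21) were called here and were not with RLE scaling or DESeq2, which called mt:ND3 higher in bodies (0.52). mt:lrRNA stood at 0.02 ± 0.21 (adjusted p = 0.93). The genes that were lowest in young bodies relative to young heads, mt:ND2, mt:ND4L and mt:ND5, are those with the largest rises in aged bodies, and both comparisons share the young bodies.

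Whether the change with age differed between body and head was tested as an interaction in the same fit. The aged NSF against young change was more positive in bodies for 11 of the 12 protein genes and for mt:lrRNA, and more negative for none, beside 13.2% of all genes that were called, 8.85% as more positive and 4.34% as more negative. Over all genes that split was 1090 and 534, and 534 and 833 with RLE scaling. The median of all genes was 0.09, and it was -0.12 with RLE scaling and -0.11 with scaling from nuclear genes. The interaction values ran from 0.92 ± 0.30 for mt:ND1 to 3.46 ± 0.51 for mt:ND4L, with mt:ND2 at 3.44 ± 0.63, mt:ND5 at 2.62 ± 0.30, mt:ND4 at 1.76 ± 0.30 and mt:lrRNA at 1.08 ± 0.29. mt:ND6, at 0.96 ± 0.56, was the protein gene that did not pass (adjusted p = 0.267). Together with mt:tRNA:Y 13 members were called, but 7 without young body 2, 3 or 5 and 8 without aged SF body 1. mt:ND1, mt:ND3 and mt:tRNA:Y were not called with RLE scaling, with scaling from nuclear genes or without aged NSF bodies 1 and 2, each of which left 10 called members, and mt:ND1 and mt:ND3 were not called with DESeq2. mt:CoII, mt:CoIII, mt:Cyt-b, mt:ND2, mt:ND4, mt:ND4L and mt:ND5 were called in all 30 fits without 1 library. For the change from aged NSF to aged SF no member differed between tissues by edgeR, DESeq2 or limma voom, 1 of 17 had an unadjusted p under 0.05, and over all genes edgeR called 0%, 1259 genes had an unadjusted p under 0.05, and DESeq2 and limma voom called 136 and 20.

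Levels per length gave an order that was much the same at the top in every group. mt:lrRNA led with 67468 CPM per kb of gene in young heads and 68506 CPM per kb in young bodies, and 18654 CPM per kb in aged SF heads, where it was lowest. mt:srRNA stood far below it at 189 CPM per kb in young heads and 132 CPM per kb in young bodies. Among the protein genes mt:CoIII came first in all 6 groups, with 6138 CPM per kb in young heads and 8277 CPM per kb in aged NSF bodies, followed by mt:CoI. The group ranges of mt:CoIII and mt:CoI overlapped in all 6 groups. Read within a library, mt:CoIII stood above mt:CoI in 3 of 5 aged NSF heads and in 5 of 5 libraries of each other group. mt:CoII, mt:Cyt-b and mt:ATPase6 followed between 2069 and 4802 CPM per kb. All complex I genes lay below 1000 CPM per kb, with mt:ND1 at 383 to 869 CPM per kb the highest of them on average in each group. The lowest tested protein genes were mt:ND2, mt:ND4L and mt:ND6, at 54.8, 55.3 and 30.2 CPM per kb in young heads and 6.61, 9.15 and 18.4 CPM per kb in young bodies. mt:ATPase8, which overlaps mt:ATPase6 by 7 bases, had at most 5 reads in a library and 1 read in all heads together. Without strand information in the counts, reads of a gene and of RNA from the opposite strand cannot be told apart.

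The 4 protein genes on the minus strand, mt:ND1, mt:ND4, mt:ND4L and mt:ND5, and the tested genes on the plus strand had called changes in the same direction within a tissue. In aged SF against young heads all 4 minus-strand genes fell, with a median log2 fold change of -1.36, and 5 of the 8 tested plus-strand genes fell, with a median of -0.64. In aged NSF against young bodies all 4 minus-strand genes rose, with a median of 1.33, and 5 of 8 plus-strand genes rose, with a median of 0.68. In aged NSF against young heads the medians were -0.51 and -0.42. Over all genes, 12.2% were called as lower in aged SF heads and 21.7% as higher in aged NSF bodies. The difference between strands was not tested. The strand does not separate the genes fully, since mt:ND2, with the second largest rise in aged NSF bodies among protein genes, lies on the plus strand.

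The 22 tRNA genes gave 1320 of 104602128 counted reads, in libraries whose preparation selects long RNA with A tails. No read fell on 6 of them, 10 had 1 to 10 reads in total, mt:tRNA:P had 26 and mt:tRNA:W 85. More than 100 reads fell on 4, mt:tRNA:Y with 466, mt:tRNA:Q with 339, mt:tRNA:I with 230 and mt:tRNA:S:UCN with 131. mt:tRNA:I (FBgn0013696, 1 to 65, plus strand) and mt:tRNA:Q (FBgn0013703, 97 to 165, minus strand), which carry isoleucine and glutamine, are the first 2 genes of the annotated mitochondrial chromosome and are followed by mt:tRNA:M, with 9 reads in all, and mt:ND2. Among heads, mt:tRNA:I had 0, 3, 1, 1 and 1 reads for young flies, 6, 10, 14, 9 and 15 reads for aged NSF flies and 8, 9, 7, 4 and 21 reads for aged SF flies. In bodies it had no read in any of the 5 young libraries, 31, 1, 7, 19 and 6 reads in aged NSF and 19, 10, 7, 10 and 11 reads in aged SF libraries. Every aged library thus held reads of it, and no young body did. Against young bodies the mean was at least 5.17-fold higher for aged NSF bodies and at least 3.75-fold higher for aged SF bodies, taking 3 counts per young library as the floor.

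mt:tRNA:Q showed the same order of groups. It had 1, 0, 0, 3 and 2 reads in young heads against 13, 18, 29, 18 and 20 in aged NSF and 28, 11, 6, 9 and 8 in aged SF heads, and 1, 0, 1, 0 and 0 reads in young bodies against 28, 5, 20, 30 and 12 in aged NSF and 25, 19, 3, 14 and 15 in aged SF bodies. No young library reached the level of an aged library of its tissue. Relative to young heads the ratio of counts, scaled for depth, was 14.4 (95% counting interval 6.36 to 40.1) in aged NSF and 9.66 (4.20 to 27.3) in aged SF heads, and relative to the 2 reads of young bodies it was 64.5 (17.4 to 540) and 38.2 (10.2 to 321). Intervals and floors cover counting error only. edgeR called mt:tRNA:Q in heads (adjusted p = 0.000259 in aged NSF and 0.00153 in aged SF) and both genes in bodies, but none of the young libraries was above the filter's minimum for either gene, so that passing the filter already asked for a higher level in aged flies. mt:tRNA:Y, which carries tyrosine and lies before mt:CoI on the minus strand, went the other way in heads with 11, 27, 9, 7 and 21 reads in young, 2, 12, 3, 2 and 1 in aged NSF and 6, 5, 9, 15 and 1 in aged SF libraries. Its groups overlapped, and its log2 fold change was -2.03 ± 0.62 in aged NSF heads (adjusted p = 0.0179) and -1.05 ± 0.58 in aged SF heads (adjusted p = 0.202). In heads it was above the filter's minimum in 4 young, 1 aged NSF and 1 aged SF libraries. It thus passed the filter mainly through the young heads, where it was high.

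**Figure D5:**
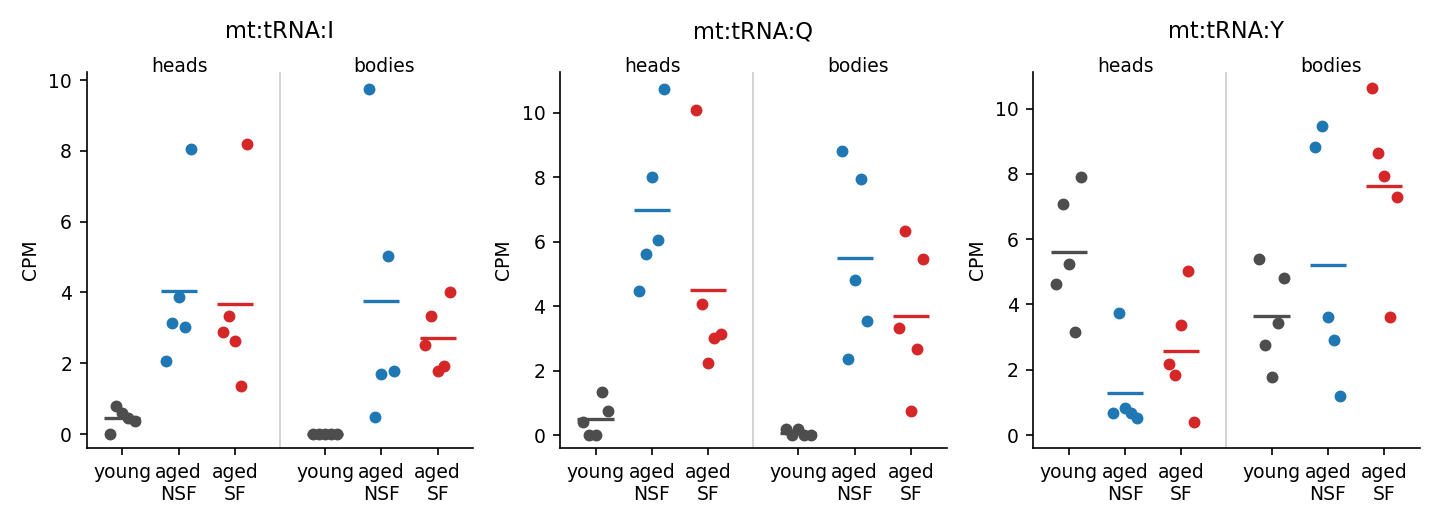
Levels of mt:tRNA:I, mt:tRNA:Q and mt:tRNA:Y in CPM, 1 point per library, with lines at the group means. The young libraries lie at or near 0 for mt:tRNA:I and mt:tRNA:Q in both tissues, while for mt:tRNA:Y in heads the young group has the highest mean.

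The nuclear genes that encode the partners of these subunits were described from lists of complexes I to V with 69 genes in the table. In heads they moved with the mitochondrial genes. In aged NSF against young heads 60 of 67 tested nuclear subunit genes fell and none rose, with a median of -0.77. In aged SF against young heads 59 fell and none rose, with a median of -0.89. Over all genes tested, 11.5% fell and 11.4% rose in the first comparison, and 12.2% fell and 13% rose in the second. Examples from the first comparison are the ATP synthase subunit genes blw (-1.06 ± 0.13) and ATPsyn-gamma (-1.16 ± 0.14), the cytochrome c oxidase genes CoIV (-0.90 ± 0.13) and CoVa (-0.83 ± 0.12), mtacp1 (-0.95 ± 0.14) and CG5548 (-1.09 ± 0.16) of complex I, CG10219 (-0.98 ± 0.15) and SdhA (-0.44 ± 0.11) of complex II and CG7580 (-0.93 ± 0.14) of complex III, with adjusted p-values of 1.05e-06 to 0.00348. In bodies they did not. In aged NSF against young bodies none of 68 rose and 6 fell, with a median of -0.21. In aged SF against young bodies none rose and 52 fell, with a median of -0.63. Of all genes tested, 19.4% fell and 21.7% rose in aged NSF bodies, and 3.26% fell and 11.1% rose in aged SF bodies. The split for aged SF bodies varied with scaling and method, as given above. Compared directly, aged SF and aged NSF bodies differed in none of the 68 genes, with a median of -0.43. Aged SF and aged NSF heads differed in none of 67, with a median of -0.08. Over all genes edgeR called 0% in this comparison of bodies and 0.253% in that of heads. CoVa (-0.90 ± 0.14) and ATPsyn-b (-0.74 ± 0.15) were among those that fell in aged SF bodies, in which 7 mitochondrial protein genes rose. The interaction for aged NSF against young was positive for 26 of 68 nuclear subunit genes and negative for none, with a median of 0.56. Over all genes it was called as positive for 8.85% and as negative for 4.34%. With RLE scaling it was positive for 534 genes and negative for 833. The call of ATPsyn-gamma held in 30 of 30 fits without 1 library, that of CoVa in 15 and that of levy in 8.

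Nuclear genes that act on the mitochondrial genome and its RNA, or on the upkeep of mitochondria, were called in both directions. Over all genes 22.8% were called in aged NSF heads, 25.2% in aged SF heads, 41.1% in aged NSF bodies and 14.4% in aged SF bodies, against young flies. The lists were not tested against these shares. Of 8 tested genes of mitochondrial DNA replication and transcription none was called in any head comparison, with medians of 0.22, -0.13 and -0.10 for aged NSF against young, aged SF against aged NSF and aged SF against young. Between 5 and 25 days in normally sleeping flies' bodies, TFAM, the factor that packages mitochondrial DNA and starts its transcription, was the 1 of 9 that rose (0.38 ± 0.13, adjusted p = 0.0348). Among 10 tested genes of mitochondrial RNA processing, polyadenylation and stability, JhI-1, the fly RNase Z that trims tRNA 3' ends, rose in aged NSF heads (1.38 ± 0.23, adjusted p = 5.86e-05), in aged SF heads (1.39 ± 0.23) and in aged NSF bodies (0.78 ± 0.22, adjusted p = 0.0135). bsf, a pentatricopeptide repeat protein gene whose product binds mitochondrial mRNAs, rose in aged NSF bodies (0.44 ± 0.17, adjusted p = 0.0444), a call that held in 6 of 15 fits without 1 body. Falls in the same list were those of CG14786 in aged NSF (-0.58 ± 0.20, adjusted p = 0.0368) and aged SF heads (-0.54 ± 0.20, adjusted p = 0.0475), CG15896 in aged NSF bodies (-1.02 ± 0.38, adjusted p = 0.0406) and CG8021 in aged SF bodies (-1.01 ± 0.30, adjusted p = 0.0338). The calls of these 3 genes held in 4 to 8 of 15 fits without 1 library. Of 13 genes of mitochondrial biogenesis and quality control, Sod2, the mitochondrial superoxide dismutase, fell in aged NSF (-0.75 ± 0.14) and aged SF heads (-0.76 ± 0.14), and srl, the fly PGC-1 coactivator, rose in aged NSF heads (1.06 ± 0.33, adjusted p = 0.0191). In that list 1 rose and 2 fell in aged NSF heads, 4 rose and 5 fell in aged SF heads, 1 rose and 3 fell in aged NSF bodies and 1 fell in aged SF bodies.

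Markers of other tissues moved as well. The sum of 10 muscle markers was 4576 to 5598 CPM in young, 2448 to 3503 in aged NSF and 2128 to 2719 in aged SF heads, and 8129 to 9636, 5267 to 7885 and 3461 to 5045 CPM in the 3 groups of bodies. Of the 10, 7 fell in aged NSF heads, 9 in aged SF heads, 7 in aged NSF bodies and 8 in aged SF bodies, and none rose. None was at 0 in more than 1 library, the one being fln. Over all genes tested, 11.5% fell in aged NSF and 12.2% in aged SF heads, and 19.4% and 3.26% in the bodies of these groups. The muscle sum was lower in aged flies of both tissues. Within it, Act57B stood at 1280 to 1987 CPM in aged NSF bodies and 1087 to 1456 CPM in young bodies. Testis markers fell in 5 of 9 cases in aged NSF bodies, with sums of 2721 to 6535 CPM in young, 370 to 3605 CPM in aged NSF and 2662 to 3936 CPM in aged SF bodies. Without aged NSF bodies 1 and 2 the testis markers fell in 8 of 9 cases. Photoreceptor markers fell in 5 of 7 cases in aged NSF heads and in 3 of 7 in aged SF heads. They rose in 5 of 5 tested cases in aged NSF bodies, or in 2 of 5 without aged NSF bodies 1 and 2. Of all genes tested 21.7% rose in aged NSF bodies. Male accessory gland markers, 6 genes, summed to 3721 to 5160 CPM in young, 1355 to 4989 CPM in aged NSF and 866 to 3478 CPM in aged SF bodies, and 1 fell in aged NSF and 2 in aged SF bodies. Without aged NSF bodies 1 and 2, 4 of the 6 fell in aged NSF bodies. Of the hemocyte markers 2 passed the filter on low counts. Hml fell in aged SF against aged NSF heads (-1.67 ± 0.28, adjusted p = 0.00345), and Pxn did not pass there (-0.20 ± 0.16, adjusted p = 0.761). All 5 fat body markers were tested in heads, where 3 fell in aged NSF and 1 in aged SF flies. Their sums were 4152 to 7176, 1055 to 2864 and 1056 to 3085 CPM in young, aged NSF and aged SF heads. Among them, fon stood at 199 to 263 CPM in young and 251 to 575 CPM in aged NSF heads. In bodies 2 rose and 2 fell in aged NSF flies, and 1 rose and 2 fell in aged SF flies. Of 5 neuron markers, 2 fell in aged NSF and 2 in aged SF heads, and none rose. In bodies 2 rose in aged NSF and 1 in aged SF flies, and none fell. Without aged NSF bodies 1 and 2, 1 rose in aged NSF bodies. Of all genes tested, 21.7% rose in aged NSF and 11.1% in aged SF bodies. The part of RNA from muscle, testis, eye, neurons, accessory gland, hemocytes and fat body in the mitochondrial results was not tested.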

How the data were processed

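Poly(A) RNA of 30 single heads or bodies was sequenced. Per the labels and the series' design text, the authors trimmed adapters, mapped reads to dm6 with STAR, dropped alignments of mapping quality below 8 and non-primary ones, and counted reads on exons with HTSeq. Versions, strand setting and annotation release are not given in the sources used here. The deposited values are raw read counts for each gene. The authors' deposited DESeq2 table holds log2 fold changes and q-values (adjusted p-values). It was used for aged SF over aged NSF heads alone, where the sign was that of the counts in 101 of 101 named genes, while its other comparisons did not line up with the gene names.

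CPM were computed with TMM factors over all 30 libraries. edgeR 4.0.16 (R 4.3.3; TMM, filterByExpr, robust quasi-likelihood) was fitted to the 3 groups of heads, the 3 of bodies, and all 6 for tissue differences and interactions, with Benjamini-Hochberg adjustment over all genes tested and a threshold of 0.05. SE is the log2 fold change divided by the square root of F. The scripts were tested on simulated data. The share of mt:lrRNA was compared by exact permutation over 252 splits. Depth was 1685034 to 8060238 reads, and the lowest chi-square per degree of freedom between replicates was 4.42, so that none was a copy of another.

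Alternatives were RLE scaling, library size and TMM from nuclear genes, no filter, at least 5 CPM in 5 libraries, DESeq2 1.42.0, limma 3.58.1 voom with quality weights, the replicate number as a block, only the groups compared, and each library left out. A fit with neither aged NSF body 1 nor 2 was added later, their marker levels being known. Members, gene lists, markers and tests were chosen with earlier results of these data known. Every mt: protein and rRNA gene is described, tRNA genes are named where called or richest in reads, and nuclear genes are named from the up to 4 called with the smallest adjusted p in each list and comparison. Nothing in the labels pairs libraries of equal number. Gene symbols are those of the count table. Coordinates are from the Ensembl 115 annotation of BDGP6 and are 1-based, since the count table holds none.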

Additional observations from a re-analysis of the deposited data

Results flagged for a closer look

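Among 5 libraries of a group, 8 of 90 combinations of gene and group had a highest or lowest library set apart by Dixon's test, a test that flags about 1 group in 20 by chance. Young body 1 was high for mt:CoI (12312 CPM, the others 4909.65 to 6361), mt:ND3 (154 CPM, the others 60.5 to 81.7) and mt:ND2 (11.7 CPM, the others 4.58 to 6.4015). Aged NSF head 5 was high for mt:CoII (2096 CPM, the others 1415 to 1499), mt:CoIII (3402 CPM, the others 2302 to 2607) and mt:ND6 (38.7 CPM, the others 9.96 to 14.8). Aged NSF body 5 was low for mt:ND4L (16.3 CPM, the others 25.0 to 27.9). Aged SF body 4 was low for mt:Cyt-b (3964 CPM, the others 5482 to 5934).

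The change from young to aged NSF differed between body and head for 13 members by the interaction test of edgeR. The body change exceeded the head change, on the log2 scale, by 0.99 for mt:ATPase6 (adjusted p = 0.0091), 0.99 for mt:CoI (0.0114), 1.31 for mt:CoII (7.38e-05), 1.12 for mt:CoIII (0.000571) and 1.20 for mt:Cyt-b (7.97e-05). In complex I it exceeded it by 0.92 for mt:ND1 (0.0413), 3.44 for mt:ND2 (0.000656), 1.00 for mt:ND3 (0.0431), 1.76 for mt:ND4 (0.000231), 3.46 for mt:ND4L (5.42e-05) and 2.62 for mt:ND5 (2.42e-06). The values were 1.08 for mt:lrRNA (0.0142) and 2.52 for mt:tRNA:Y (0.0317). The calls of mt:ND1, mt:ND3 and mt:tRNA:Y were lost with RLE scaling and with scaling from nuclear genes, and those of mt:ATPase6, mt:CoI and mt:lrRNA were lost without young body 2, 3 or 5.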

How the results depend on the processing

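Of 514 refits of called members under alternatives other than leaving out a library, 489 stayed called in the same direction. In the rest, 25 were no longer called and none reversed. Called members that failed the filter of an alternative were not counted among these refits. In aged NSF against young bodies, for example, 9 of the 11 called members were refitted at 5 CPM in 5 libraries. Of 1245 refits that left out 1 library 1131 stayed called, 114 did not and none reversed. Both totals include mt:tRNA:I and mt:tRNA:Q, whose calls in aged flies the filter favoured. The lone mitochondrial call between aged SF and aged NSF heads became 2 with DESeq2 and 0 with limma voom. Without a filter on low counts 14 members in place of 7 differed between young bodies and heads, all lower in bodies. The difference in mt:lrRNA between young bodies and heads, -0.87 percentage points, was 0.00676 as log2 CPM, and neither passed. The mt:lrRNA share of aged SF against aged NSF bodies (-1.22 points, unadjusted exact permutation p = 0.0397), which did not pass after adjustment, was -1.27 points without aged NSF bodies 1 and 2 (exact permutation p = 0.107). As a share of nuclear reads the protein genes stood at 2.64% in young heads and 2.95% in aged NSF bodies. Leaving out each library in turn gave 6 to 10 called members for aged NSF against young heads, 0 to 1 for aged SF against aged NSF heads, and 7 to 13 for the interaction of age and tissue. The mt:lrRNA share differed by -1.65 to -1.11 points for aged SF against aged NSF heads, -1.50 to -0.97 for the same in bodies and -2.93 to -1.54 for aged SF against young bodies.

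Deviations of libraries with the same replicate number correlated at -0.04 to 0.15 between groups of heads (over 0.1 in 3 of 15 pairs), at -0.12 to 0.43 between groups of bodies (5 of 15) and at 0.02 to 0.19 between head and body of a group (6 of 15, all above 0). Not every pair exceeded 0.1, so the numbers were not taken to pair the samples. The values between head and body do not show that they are unlinked, and the fits across tissues treated them as independent. The replicate block shares each number over all groups, so it does not model head and body of 1 fly. With the replicate number as a block, 8, 1 and 11 members were called in heads and 13, 0 and 9 in bodies (aged NSF against young, aged SF against aged NSF, aged SF against young), 7 between tissues, and 13 and 0 in the interactions. Depth limits the tRNA genes, mt:ATPase8, mt:ND4L and mt:ND6, whose libraries held few reads, and 5 libraries per group limit the exact test to a smallest p of 0.00794. Over all genes, aged SF against aged NSF heads gave 23 called genes, 56 without a filter, 88 with DESeq2, 39 with limma voom, 63 with the replicate block and 36 with only the groups compared. Aged SF against young bodies gave 1729, 4239 with limma voom, 3402 without aged NSF bodies 1 and 2 and 3369 with only the groups compared.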
